A study of Mus musculus with 3 samples.

Results

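Small leucine-rich proteoglycans (SLRPs) were followed through mouse dorsal skin that was left unirradiated, exposed to UV, or exposed to UV and treated with ruxolitinib. The 9 genes were chosen by name from the SLRP family, though with earlier results of these data known. They were Dcn, Bgn, Aspn, Lum, Fmod, Omd, Prelp, Ogn and Podn, out of 32285 genes in the count matrices. All 9 were detected in each of the 3 libraries. Full-thickness skin came from C57BL/6J mice described as female, wild type and 8 weeks old. The study gives this age for the mice of all groups as purchased, so the irradiated mice were older at excision. The age of the CON mice at excision is not given separately. The control group (CON) received no irradiation. The UV group was irradiated on alternate days over 12 weeks, with UVB at an intensity of 3.5 mW/cm2 and UVA at 0.60 mW/cm2. The Rux group had the same irradiation, each time followed by an ointment with 1.5% ruxolitinib, an inhibitor of the kinases JAK1 and JAK2. Skin was excised 24 h after the last exposure and dissociated, and 1 droplet-based 3′ single-cell library was made per group. The number of mice in a library is not stated in the sources used here. In the study's design the CON and UV groups received the vehicle without the drug, which the sample labels do not say.

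SLRPs are small proteins of the extracellular matrix, built from a curved array of leucine-rich repeats, most of which carry chondroitin, dermatan or keratan sulfate chains. In the dermis they are secreted mainly by fibroblasts and sit on the surface of collagen fibrils, where decorin, lumican and fibromodulin regulate how thick fibrils become and how regularly they are spaced. Several of them also bind TGF-beta, and soluble biglycan and decorin can signal through Toll-like receptors. The family is divided into classes by sequence: decorin, biglycan and asporin form class I, lumican, fibromodulin, osteomodulin and PRELP class II, osteoglycin belongs to class III, and podocan to class V.

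Several of the genes are neighbours. In GRCm38 with the GENCODE M21 annotation, Aspn (ENSMUSG00000021388, chr13:49544443-49567565), Omd (ENSMUSG00000048368, chr13:49582462-49592822) and Ogn (ENSMUSG00000021390, chr13:49608046-49624501) follow each other on the plus strand with gaps of 14.9 and 15.2 kb. A further SLRP gene, Ecm2, ends 11.7 kb before Aspn, and all of them lie inside Cenpp, which is transcribed from the other strand. Dcn (ENSMUSG00000019929, chr10:97479609-97518143) and Lum (ENSMUSG00000036446, chr10:97565128-97572703) are 47 kb apart on the plus strand. Prelp (ENSMUSG00000041577, chr1:133910304-133921414, minus strand) and Fmod (ENSMUSG00000041559, chr1:134037254-134048277, plus strand) are 116 kb apart. Bgn (ENSMUSG00000031375) is at chrX:73483602-73495933 on the plus strand. Podn (ENSMUSG00000028600, chr4:108014791-108096445, minus strand) shares 52607 bases with Scp2 on the same strand, so tags from the shared stretch may be uncertain between these genes.

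The 250 bases before the transcription start are shown for the chromosome 13 neighbours, of which Ogn alone passed 1.5-fold between libraries, and for Fmod, because it moved in the same directions as Ogn. They are from RefSeq on GRCm38.p6, whose table held an entry for 7 of the 9 genes, and are written 5′ to 3′ on the strand of the gene, in the order Aspn (chr13:49544193-49544442), Omd (chr13:49582212-49582461), Ogn (chr13:49607765-49608014) and Fmod (chr1:134037004-134037253). Capitals mark matches to the motifs searched.
Aspn: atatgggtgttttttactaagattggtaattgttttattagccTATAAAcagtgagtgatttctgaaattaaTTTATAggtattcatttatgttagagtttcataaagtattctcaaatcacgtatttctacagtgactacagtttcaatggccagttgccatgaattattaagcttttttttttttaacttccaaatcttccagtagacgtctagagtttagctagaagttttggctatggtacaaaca
Omd: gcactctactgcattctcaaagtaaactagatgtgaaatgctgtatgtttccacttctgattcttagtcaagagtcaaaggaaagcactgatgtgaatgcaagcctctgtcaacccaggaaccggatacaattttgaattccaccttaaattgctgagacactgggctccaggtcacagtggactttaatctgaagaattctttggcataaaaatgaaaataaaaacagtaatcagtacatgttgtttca
Ogn: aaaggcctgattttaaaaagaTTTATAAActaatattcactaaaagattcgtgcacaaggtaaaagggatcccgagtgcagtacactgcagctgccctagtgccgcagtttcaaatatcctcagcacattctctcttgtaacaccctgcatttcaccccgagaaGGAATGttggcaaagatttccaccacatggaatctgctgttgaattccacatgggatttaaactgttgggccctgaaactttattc
Fmod: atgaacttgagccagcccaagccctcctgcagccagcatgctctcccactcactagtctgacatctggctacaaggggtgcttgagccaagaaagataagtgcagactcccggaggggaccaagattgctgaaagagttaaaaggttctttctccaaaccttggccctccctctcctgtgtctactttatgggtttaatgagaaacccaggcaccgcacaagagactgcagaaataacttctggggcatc

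On both strands, 4 motifs were searched: TATAAA, the AP-1 motif TGANTCA, the STAT motif TTCNNNGAA and the TEAD motif GGAATG. Of 32851 RefSeq promoter windows of this length, 12.4% held TATAAA, 6.75% TGANTCA, 7.02% TTCNNNGAA and 12.6% GGAATG. The Ogn window held a pair of overlapping matches to TATAAA, from 229 to 222 bases before the start, and GGAATG from 86 to 81 bases before it. The Aspn window held TATAAA on its own strand 207 bases before the start and on the other strand 178 bases before it. These letters were not found in the windows of Omd and Fmod, nor in those of Prelp, Podn and Bgn. GC content was 30% for Aspn, 38.4% for Omd, 42% for Ogn and 51.2% for Fmod, and the median of all windows was 52.4%.

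The matrices held 13170 cells and 165337289 UMIs in CON, 12411 cells and 133972374 UMIs in UV, and 11287 cells and 131570327 UMIs in Rux. A UMI (unique molecular identifier) labels 1 molecule of RNA, so that copies made by amplification are counted once. Between 28 and 50 cell barcodes were shared by each pair of libraries, at most 0.403% of a library. All libraries went against the label female: over the cells kept, the Y-linked gene Ddx3y had 110 CPM (counts per 1000000 UMIs) in CON, 116 CPM in UV and 121 CPM in Rux, and Xist had 0.0924, 0.120 and 0.112 CPM. The 3 libraries were alike in this. Cells were clustered without the SLRP genes, and clusters were named from markers that held no SLRP gene. Fibroblast-like (FB-like) cells numbered 3403 in CON, 5119 in UV and 5053 in Rux. The FB markers Col1a1, Col3a1, Col1a2, Pdgfra, Dpt and Fbn1 summed to 23480, 17207 and 18032 CPM in them, against 250, 111 and 105 CPM for 6 basal keratinocyte markers and 257, 150 and 221 CPM for 6 pericyte markers. These lists were used to name the clusters, so the contrast follows in part from the naming. With 1 library per condition, no difference between conditions has a replicate check, no test was made, and the exact 95% intervals below cover counting error only.

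Dcn dominated the family in fibroblasts. In FB-like cells it had the third-highest UMI count of all genes in every library, at 10567 CPM in CON, 10262 CPM in UV and 9581 CPM in Rux. The 9 genes together made up 1.44%, 1.44% and 1.35% of all FB-like UMIs, and Dcn alone 73.4%, 71.1% and 71.0% of that. Each transcript gives 1 tag near its 3′ end, so these levels are counts of molecules and were not scaled to transcript length. A median of 4 of the 9 genes was detected per FB-like cell in each library after every cell was thinned to 2000 UMIs, and none was detected in 0.706% of CON, 0.454% of UV and 0.183% of Rux cells.

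**Figure D1:**
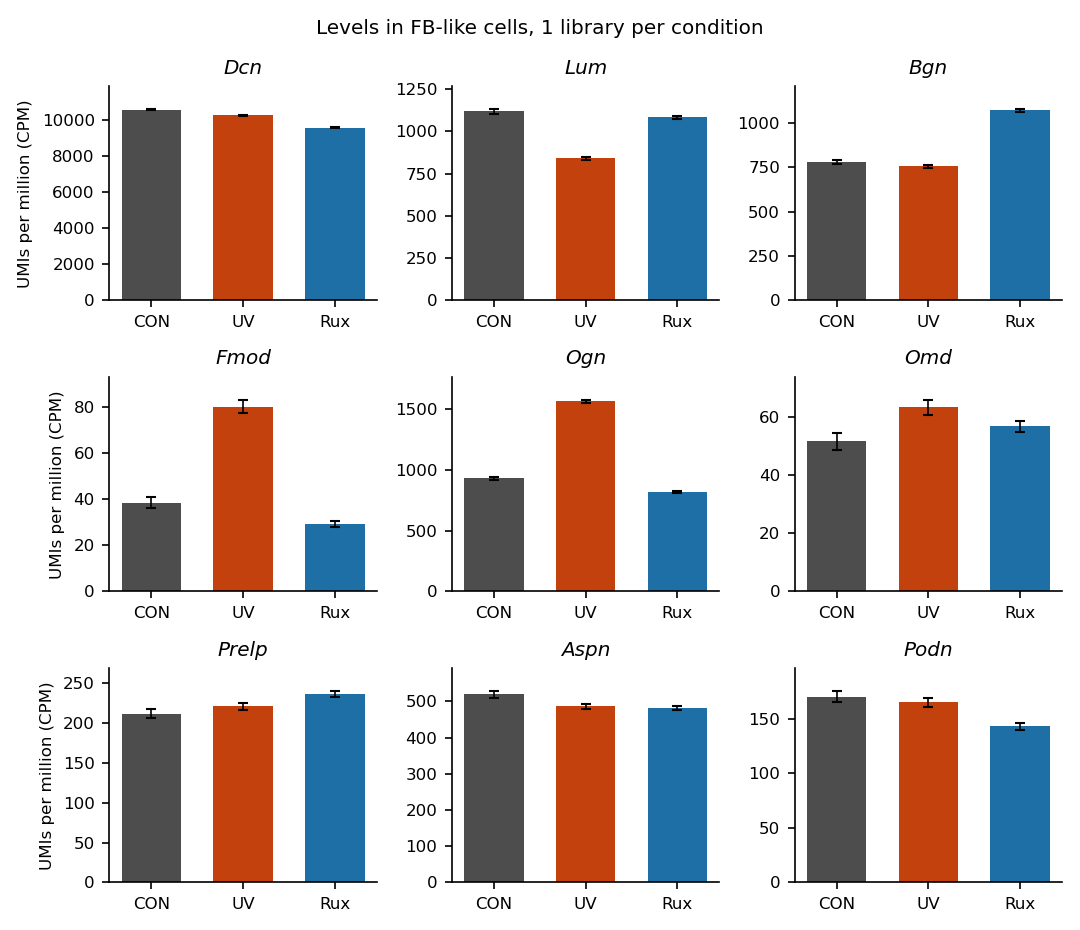
Level of each SLRP gene in FB-like cells, in CPM (linear axes from 0, 1 panel per gene), by library. Bars are the summed level of 1 library and error bars its exact 95% Poisson interval; Ogn and Fmod are highest in UV, at 1562 and 80.2 CPM, and Bgn is highest in Rux, at 1071 CPM.

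Between CON and UV the family split into a few genes that differed and several that hardly did. Relative to CON, 2 of the 9 genes were at least 1.5-fold higher in UV in FB-like cells, Fmod and Ogn, and 0 were at least 1.5-fold lower. Of the 8370 genes whose mean level reached 10 CPM, 6.2% were higher and 8.53% lower by this size. Between UV and Rux the same 2 genes were at least 1.5-fold lower in Rux, where 5.16% of 8154 genes were lower and 3.43% higher. Against CON, Rux had 0 of the 9 past 1.5-fold, where 7.13% of 8343 genes were higher and 10% lower. These comparisons share libraries and are not independent of each other. The median log2 ratio of the 9 genes was −0.04 for UV over CON, −0.10 for Rux over UV and −0.11 for Rux over CON, and the median over all genes tested was −0.11, 0.03 and −0.08.

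Ogn encodes osteoglycin (mimecan), a collagen-binding SLRP that regulates fibril diameter. Its level in FB-like cells was 930 CPM in CON (95% interval 917 to 942), 1562 CPM in UV (1550 to 1574) and 820 CPM in Rux (812 to 827). The UV library was high, and the libraries on either side of it were close to each other. The log2 ratio was 0.75 (0.73 to 0.77) for UV over CON, a 1.68-fold difference, and −0.93 (−0.95 to −0.91) for Rux over UV, where Rux was 1.91-fold lower. Rux was also slightly below CON, at −0.18 (−0.20 to −0.16). Of all genes tested, 95.7% had a lower ratio of UV over CON than Ogn.

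Fmod encodes fibromodulin, which binds collagen at sites shared with lumican and takes part in fibril assembly. It had 38.5 CPM in CON (36.0 to 41.1), 80.2 CPM in UV (77.4 to 83.0) and 29.2 CPM in Rux (27.8 to 30.6), from 914, 3142 and 1648 UMIs. Again UV was the high library and Rux the lowest. The log2 ratio was 1.06 (0.95 to 1.17) for UV over CON, 2.08-fold, and −1.46 (−1.54 to −1.37) for Rux over UV, 2.75-fold lower in Rux. For Rux over CON it was −0.40 (−0.52 to −0.28), which turned to 0.10 with equal weight per cell. Over all genes tested, 98.1% had a lower ratio of UV over CON than Fmod.

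Bgn encodes biglycan, the X-linked relative of decorin. It had 782 CPM in CON, 757 CPM in UV and 1071 CPM in Rux, so Rux was the high library while CON and UV were close. The log2 ratio was −0.05 (−0.07 to −0.02) for UV over CON, 0.50 (0.48 to 0.52) for Rux over UV and 0.45 (0.43 to 0.48) for Rux over CON. The difference between Rux and CON passed 1.5-fold under another scaling of the libraries and when FB-like subclusters were given their CON weights, at 0.60 in both cases. The small difference between UV and CON turned direction, up to 0.36 with CON subcluster weights.

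Dcn encodes decorin, which coats collagen fibrils and carries a single chondroitin or dermatan sulfate chain. The log2 ratio of its levels given above was −0.04 (−0.05 to −0.04) for UV over CON, −0.10 (−0.10 to −0.09) for Rux over UV and −0.14 (−0.15 to −0.13) for Rux over CON. The last of these turned to 0.06 and Rux over UV to 0.20 with CON subcluster weights, and UV over CON turned to 0.07 under median-of-ratios scaling. Aspn encodes asporin, a class I protein with an aspartate-rich stretch that binds collagen and TGF-beta. Its levels were 520 CPM in CON, 487 CPM in UV and 481 CPM in Rux, with CON the highest and the other libraries nearly level. The log2 ratio was −0.09 (−0.13 to −0.06) for UV over CON and −0.02 (−0.05 to 0.01) for Rux over UV. With CON subcluster weights these were 0.32 and −0.47, so that UV was the highest library, and under median-of-ratios scaling 0.02 and 0.02.

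Lum encodes lumican, a keratan sulfate proteoglycan needed for orderly collagen fibrils in skin and cornea. It had 1119 CPM in CON, 839 CPM in UV and 1083 CPM in Rux, the reverse of the Ogn pattern with UV as the low library. The log2 ratio was −0.41 (−0.44 to −0.39) for UV over CON, 0.37 (0.35 to 0.39) for Rux over UV and −0.05 (−0.07 to −0.03) for Rux over CON. With the FB-like subclusters described below weighted as in CON, the ratio of UV over CON turned to 0.09 and that of Rux over CON to 0.12.

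Prelp, Omd and Podn also stayed within 1.5-fold in each comparison. PRELP, which anchors matrix to basement membranes, was at 212 CPM in CON, 221 CPM in UV and 236 CPM in Rux. Omd, whose product osteomodulin is best known from bone, was at 51.7, 63.3 and 56.8 CPM, with a log2 ratio of 0.29 (0.19 to 0.39) for UV over CON. Podn, whose product podocan is known as a matrix protein of smooth muscle and kidney, was at 170, 165 and 143 CPM, and its log2 ratio of Rux over UV was −0.21 (−0.25 to −0.16). With CON subcluster weights the log2 ratio of Rux over UV turned to −0.24 for Prelp and that of UV over CON to 0.15 for Podn, and under a stricter cell filter that of Rux over CON turned to −0.29 for Omd. That filter also changed which clusters were named FB-like. A cluster of 770 cells led by Adamts18, Lrrc15 and Acan, with FB markers highest, was left unnamed under it. The part of this in the Omd ratio was not tested. The chromosome 13 neighbours did not move by the same size: Ogn was 1.68-fold higher in UV than in CON, Omd 1.23-fold, and Aspn 1.07-fold lower. With CON subcluster weights the log2 ratios of UV over CON were 0.67 for Ogn, 0.58 for Omd and 0.32 for Aspn, all higher in UV. Under the same weights Fmod, Bgn, Prelp, Podn and Lum were higher in UV too, so this direction was not particular to the chromosome 13 neighbours. Only Dcn was lower, at −0.14.

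Over all kept cells Dcn was higher where FB-like cells took a larger share, while Ogn and Fmod were highest in UV. Dcn had 2218 CPM in CON, 3876 CPM in UV and 4995 CPM in Rux, and FB-like cells made up 31.6%, 50.03% and 54.3% of the kept cells. Ogn had 170, 546 and 410 CPM and Fmod 7.74, 30.3 and 15.2 CPM. Such a sum alone does not tell fewer cells of a type from less RNA per cell. FB-like cells held 16.9%, 33.6% and 48.7% of all UMIs in CON, UV and Rux. Inside them the Dcn level was slightly lower in UV and Rux than in CON, as given above. FB-like cells held 80.5% of the Dcn UMIs in CON, 88.9% in UV and 93.5% in Rux. For Ogn these shares were 92.4%, 96.1% and 97.4%, and for Bgn only 62.3%, 76.0% and 89.99%.

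**Figure D2:**
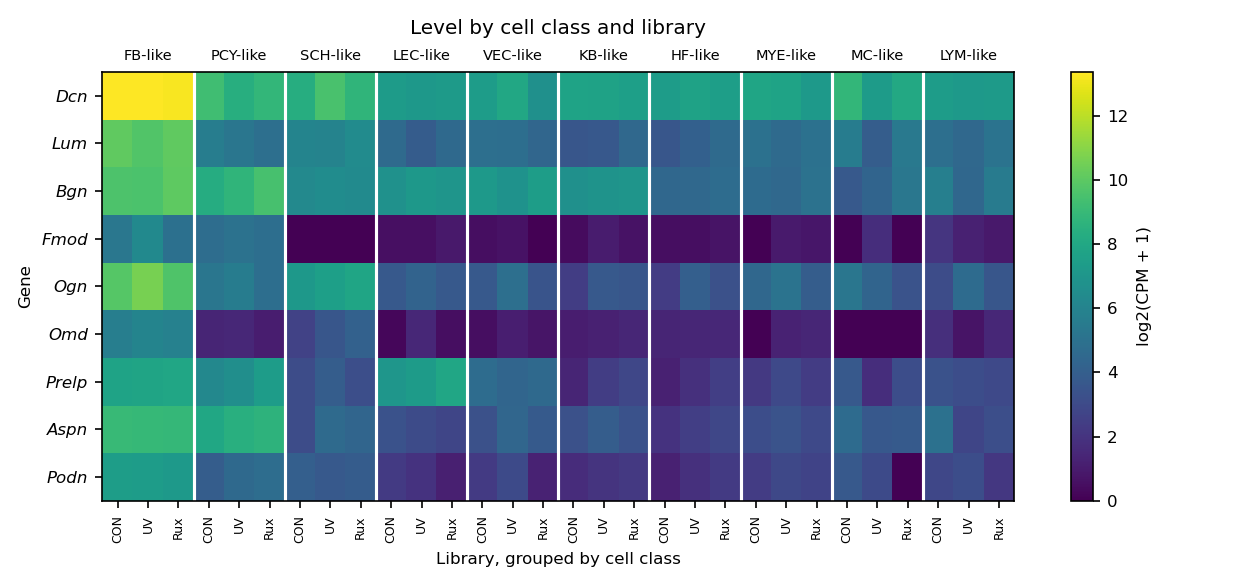
Level of the SLRP genes, as log2(CPM + 1) by colour, in the 10 named cell classes with at least 50 cells in every library (columns, with CON, UV and Rux side by side). Dcn, Lum and Ogn are brightest in FB-like cells, while Bgn, Aspn, Prelp and Fmod are also seen in pericyte-like (PCY-like) cells and Prelp in lymphatic endothelial-like (LEC-like) cells.

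The genes differed in how far they were restricted to fibroblasts. The comparison covers named classes with at least 50 cells in every library, with the libraries summed. FB-like cells had 19.0 times the Dcn and 14.5 times the Lum level of the next of these, Schwann-like (SCH-like) cells. Podn was 7.42-fold over PCY-like cells, Ogn 5.90-fold and Omd 5.39-fold over SCH-like cells. In Bgn, Fmod, Aspn and Prelp the lead was small: 2.00-fold, 1.65-fold and 1.50-fold over PCY-like cells and 1.41-fold over LEC-like cells. Myogenic progenitor-like (MP-like) cells, with 28 in Rux, fell outside this comparison. They held 0.596%, 0.385% and 0.265% of the Dcn UMIs and 0.361%, 0.540% and 0.229% of the Lum UMIs in CON, UV and Rux. Their share of all UMIs was only 0.361%, 0.148% and 0.0990%. Relative to FB-like cells, their Dcn level was therefore higher in Rux and their Lum level higher in UV and Rux. Lymphocyte-like (LYM-like) cells, which should lack these transcripts, still had 148 to 166 CPM of Dcn and 21.7 to 33.5 CPM of Lum, as free RNA in the suspension can give in any cell.

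PCY-like cells stood out. At resolution 0.8, where the class had the same cell numbers, its leading genes were Myh11, Lmod1 and Dgkb. Pericytes were not told apart from vascular smooth muscle in it. PCY-like cells had 308 CPM of Bgn in CON, 421 CPM in UV and 716 CPM in Rux, so the level was higher in each irradiated library and highest in Rux, with a log2 ratio of 1.22 (1.03 to 1.40) for Rux over CON. Aspn was at 250, 346 and 393 CPM, with 0.65 (0.43 to 0.88), and Prelp at 73.9, 97.6 and 166 CPM, with 1.17 (0.79 to 1.56). Lum went the other way, at 49.6, 36.4 and 28.5 CPM, above the LYM-like level in CON and UV and below it in Rux. Since free RNA can be found in any cell, ratios to Dcn were also compared. In PCY-like cells the ratio of Aspn to Dcn was 8.39, 21.7 and 17.2 times that in FB-like cells of the same library, that of Bgn 6.86, 17.0 and 14.1 times, and that of Lum 0.77, 1.33 and 0.55 times. In LYM-like cells these were 3.82, 0.839 and 1.06 times for Aspn, 4.42, 1.92 and 2.61 times for Bgn, and 1.63, 1.78 and 1.89 times for Lum. The part of free RNA in the PCY-like levels was not tested. An unnamed cluster led by Rgs5, Higd1b and Fabp4, in which pericyte and endothelial markers were both high, had 140, 166 and 265 CPM of Bgn.

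In lymphatic endothelium Prelp was above Dcn in UV and Rux and below it in CON, where Dcn had 159, 140 and 153 CPM in CON, UV and Rux. LEC-like cells had 128 CPM of Prelp in CON, 161 CPM in UV and 244 CPM in Rux, and in Rux the interval (224 to 265) overlapped that of FB-like cells (232 to 240). The log2 ratio of Rux over CON was 0.93 (0.77 to 1.08). The ratio to Dcn was 40.1, 53.5 and 64.6 times that in FB-like cells, against 2.81, 2.47 and 1.71 times in LYM-like cells. Bgn was present in blood vessel endothelial-like (VEC-like) cells at 146, 111 and 172 CPM and in basal keratinocyte-like (KB-like) cells at 102.96, 114 and 126 CPM. SCH-like cells carried Ogn at 139, 186 and 229 CPM, with a log2 ratio of 0.72 (0.21 to 1.24) for Rux over CON. Fmod had 0 UMIs in the SCH-like cells of every library, which allows up to 7.73 CPM in CON, 5.37 CPM in UV and 8.39 CPM in Rux.

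In 2 unnamed clusters led by Itga2 and Epgn, with markers of both hair follicle and basal keratinocytes, Dcn was above the LYM-like level. It was at 584 CPM in CON, 986 CPM in UV and 850 CPM in Rux in the larger of them, and at 678, 990 and 780 CPM in the other. Lum stayed between 8.05 and 18.9 CPM there, and its ratio to Dcn was 0.10 to 0.21 times that of FB-like cells. Bgn was at 63.7, 37.1 and 30.9 CPM in the first of these clusters and at 64.7, 36.0 and 44.3 CPM in the other. The LYM-like levels were 54.4, 21.01 and 45.8 CPM, so both clusters were above them in CON and UV and below in Rux. A further unnamed cluster of few UMIs per cell, led by Gdf10, Mgp and Cst3, had 15580, 13420 and 15631 CPM of Dcn, above FB-like cells. It may itself hold fibroblasts. Dcn was in 100% of its thinned cells in every library. Under the stricter cell filter a cluster led by Gdf10, Olfr1033 and Vit was named FB-like. The FB-like shares above leave out its 7.85%, 3.28% and 2.92% of the Dcn UMIs. Ogn and Fmod were highest in UV here too, at 517, 790 and 381 CPM for Ogn and 26.1, 124 and 27.8 CPM for Fmod. The cluster comes from the same libraries and is no independent repeat.

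**Figure D3:**
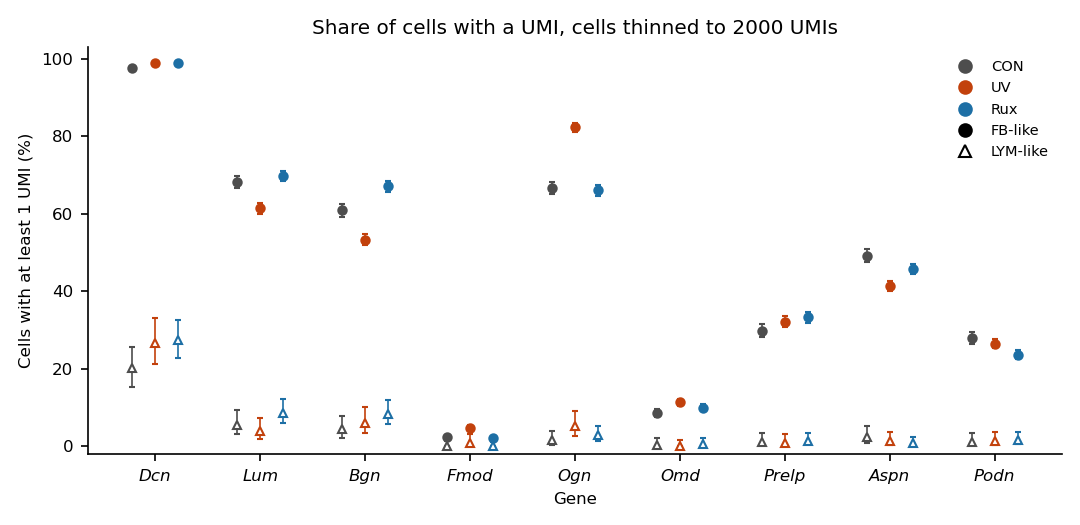
Share of cells with at least 1 UMI of each SLRP gene (y axis, percent) in FB-like cells (filled circles) and LYM-like cells (open triangles) of the 3 libraries (colours), all cells thinned to 2000 UMIs. Bars are exact 95% intervals; nearly all FB-like cells hold Dcn, and the Ogn share is 82.3% in UV against 66.6% in CON and 66.0% in Rux.

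The share of FB-like cells with a UMI was highest in UV for Ogn and Fmod, as their levels were, but the order of the libraries by share differed from that by level for Dcn, Aspn and Lum. Cells were thinned to 2000 UMIs because median depth was 6136, 7317 and 9989 UMIs in the FB-like cells of the libraries, in the order CON, UV and Rux, against 5421, 5393 and 5610.5 in LYM-like cells. The thinning left out 143, 269 and 138 shallower FB-like cells and 10, 11 and 13 LYM-like cells. Dcn was detected in 97.5%, 98.8% and 98.9% of FB-like cells, against 20.1%, 26.8% and 27.5% of LYM-like cells. Ogn was detected in 66.6% (64.98% to 68.2%) of CON, 82.3% (81.2% to 83.4%) of UV and 66.0% (64.7% to 67.3%) of Rux FB-like cells, and in 1.61%, 5.26% and 2.90% of LYM-like cells. Without thinning, over all FB-like cells, the Ogn shares were 79.9%, 90.8% and 87.0%. Rux then lay nearer to UV, but these shares also rise with depth, which was highest in Rux.

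Fmod was a gene of few cells. It was detected in 2.42% (1.92% to 3.01%) of FB-like cells in CON, 4.78% (4.20% to 5.42%) in UV and 2.03% (1.66% to 2.47%) in Rux, and without thinning in 3.73%, 8.07% and 3.80%. In LYM-like cells it was found in 0 of 249 cells of CON, which allows a share of up to 1.20%, in 0.877% of UV, and in 0 of 345 cells of Rux, which allows up to 0.870%. Bgn was detected in 60.8%, 53.3% and 67.0% of FB-like cells and Lum in 68.2%, 61.4% and 69.8%, both lowest in UV. Aspn was detected in 49.2%, 41.3% and 45.7%, Prelp in 29.8%, 32.2% and 33.2%, Podn in 27.9%, 26.5% and 23.6%, and Omd in 8.50%, 11.4% and 9.95%, and for these 6 genes the LYM-like shares were between 0 and 8.70%. The 0 was Omd in UV, in 228 cells, which allows up to 1.32%.

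**Figure D4:**
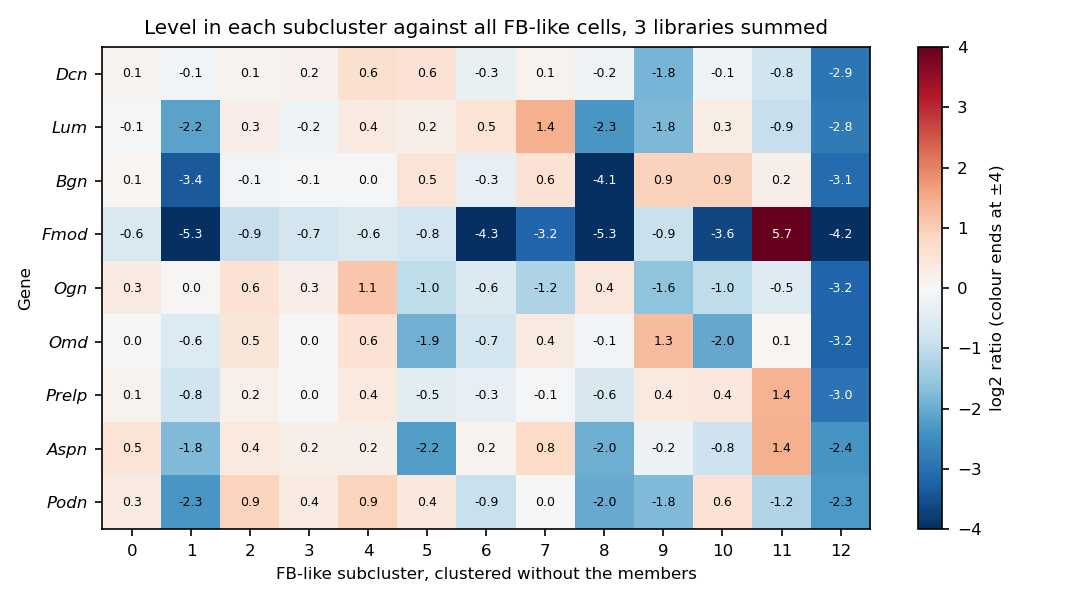
Level of each SLRP gene in the 13 FB-like subclusters (columns) against all FB-like cells, as a log2 ratio with the 3 libraries summed (numbers in the cells, colour ending at ±4). Fmod is concentrated in subcluster 11, Lum is highest in subcluster 7 and Bgn is lowest in subclusters 8 and 1.

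Fibroblasts were not uniform in their SLRPs. FB-like cells clustered again without the SLRP genes fell into 13 subclusters, which are given by number and leading genes. Libraries differed in how their cells were spread over them: subcluster 3 (Socs3, Gadd45g, Zfp36) held 1126 of the FB-like cells in CON, 400 in UV and 79 in Rux, subcluster 1 (Dtna, Limch1) 142, 1018 and 527, and subcluster 10 (Saa3, Hp, Lcn2) 1, 15 and 474. The largest in Rux was subcluster 0 (Thbs4, G530011O06Rik, Thbs1), with 483, 902 and 1116 cells. Highest Dcn was in subcluster 4 (Ecrg4, Rrad, Clu) at 15481 CPM with the libraries summed, and lowest in subcluster 12 (Tuft1 and globin genes) at 1355 CPM. Subcluster 4 also led in Ogn, at 2353 CPM, and, level with subcluster 2 (Pecam1, Dnah12) at 286 CPM, in Podn, at 288 CPM.

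Lum and Bgn marked other fibroblasts. Lum was highest in subcluster 7 (Grem1, F13a1, Igfbp2), at 2703 CPM against 1473 CPM in the next, and this subcluster held 378 cells in CON, 66 in UV and 266 in Rux. Bgn was highest in subcluster 9 (Ednrb, Acta2, Actg2), at 1731 CPM, and in subcluster 10, at 1729 CPM, and lowest in subcluster 8 (Rasgef1c), at 53.8 CPM. Subcluster 9 was also the one with most Omd, at 140 CPM, and had little Dcn, at 475 CPM in CON, 2373 CPM in UV and 3816 CPM in Rux.

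Fmod was concentrated in 1 subcluster. Subcluster 11, led by Coch, Adgrl3 and Crabp1, had 2407 CPM of Fmod against 31.3 CPM in the next, and was also highest in Aspn, at 1305 CPM, and Prelp, at 591 CPM. Its 42 cells in CON, 102 in UV and 68 in Rux held 56.7%, 57.6% and 79.2% of the Fmod UMIs of FB-like cells. Within it Fmod was at 2533 CPM in UV and 2413 CPM in Rux, a log2 ratio of −0.07 (−0.17 to 0.03). In the FB-like cells outside it Fmod was at 16.9 CPM in CON, 34.6 CPM in UV and 6.14 CPM in Rux, with a log2 ratio of 1.04 (0.87 to 1.20) for UV over CON and −2.49 (−2.67 to −2.32) for Rux over UV. Whether these ratios differ was not tested, and the makeup of the cells outside subcluster 11 also changed between libraries.

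**Figure D5:**
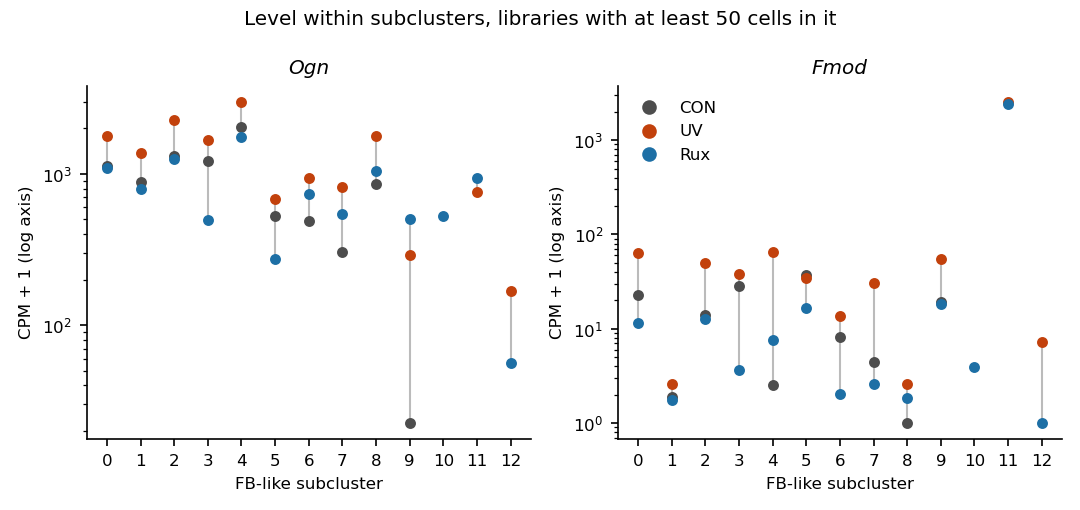
Level of Ogn (left) and Fmod (right) within each FB-like subcluster, as CPM + 1 on a log axis, by library (colours), for libraries with at least 50 cells in the subcluster. In Ogn the UV point is above the CON point in all 10 subclusters with both, and in Fmod the UV point is above the Rux point in all 12 with both.

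The Ogn difference ran through most subclusters. UV was above CON in 10 of the 10 subclusters with at least 50 cells in both libraries, with a median log2 ratio of 0.73, and Rux was below UV in 10 of 12. The exceptions were subcluster 9, at 290 CPM in UV and 505 CPM in Rux, and subcluster 11, at 755 and 941 CPM. In subcluster 4 the level was 2047 CPM in CON, 2985 CPM in UV and 1764 CPM in Rux. For Fmod, Rux was below UV in 12 of 12, and the interval of the ratio lay below 0 in 8 of them. It included 0 in subcluster 11, which held most Fmod UMIs, at −0.07 (−0.17 to 0.03). The same was so in subclusters 1, 8 and 12, which had few Fmod UMIs. The subclusters share their libraries and are not replicates of a condition.

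Every library was also given the subcluster weights of CON. Ogn then had a log2 ratio of 0.67 for UV over CON and −0.99 for Rux over UV, and Fmod 0.78 and −1.07. The directions were those found without the weights, and both Fmod ratios were smaller in size. Some weights rest on few CON cells: 42 in subcluster 11, with 56.7% of the Fmod UMIs of FB-like cells in CON, and 1 in subcluster 10. The part of subcluster makeup in the differences was not tested. Lum within subclusters was higher in UV than in CON in 8 of 10, although it was lower over all FB-like cells. Among these 8, subcluster 8 had a log2 ratio of only 0.05 (−0.33 to 0.47). The exceptions were subcluster 1, at −0.33 (−0.55 to −0.09), and subcluster 7, at −0.38 (−0.45 to −0.31). Subcluster 7 held 43.2% of the Lum UMIs of FB-like cells in CON. It made up 11.1% of FB-like cells in CON and 1.29% in UV. Bgn was higher in Rux than in CON in 9 of 10 subclusters.

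The enzymes that build SLRP sugar chains differed singly. Over all genes tested in FB-like cells, 6.2% were higher and 8.53% lower by 1.5-fold in UV than in CON. These shares were 3.43% and 5.16% for Rux over UV, and 7.13% and 10% for Rux over CON. They are the background for the list counts in this and the following paragraphs. Of 12 genes for the linker and chain synthesis, 9 passed 10 CPM in FB-like cells, 2 of these were at least 1.5-fold higher in UV than in CON, 1 lower in Rux than in UV and 1 higher in Rux than in CON. Xylt1, which starts the chain by adding xylose to the core protein, was at 67.8 CPM in CON, 193 CPM in UV and 179 CPM in Rux, with a log2 ratio of 1.51 (1.43 to 1.59) for UV over CON. It was high in both irradiated libraries. Chsy3, a chondroitin synthase, was at 73.2, 133 and 57.3 CPM, with UV alone high, and had a log2 ratio of 0.86 (0.78 to 0.94) for UV over CON and −1.22 (−1.28 to −1.15) for Rux over UV. Of 10 genes for dermatan epimerases and sulfotransferases 5 passed, and 1, 0 and 2 of them were past 1.5-fold in UV over CON, Rux over UV and Rux over CON, all higher. Ust, a sulfotransferase of the uronic acid, was at 318, 496 and 492 CPM, and Chst11 at 79.2, 110 and 144 CPM. Of 6 keratan sulfate genes 1 passed, and 0 were past 1.5-fold.

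Of the 7 fibrillar collagen partners all passed, with 1 lower in UV than in CON, 0 past 1.5-fold between UV and Rux, and 2 lower in Rux than in CON. Col1a1 was at 7672 CPM in CON, 4258 CPM in UV and 4199 CPM in Rux, a log2 ratio of −0.85 (−0.86 to −0.84) for UV over CON, while Dcn stayed within 0.14 of its CON level on this scale. Col1a2 was at 8808, 6237 and 5671 CPM. Both collagen genes are FB markers and took part in naming the cells.

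Among 10 genes for proteases and their helpers that cut SLRPs, 8 passed, with 3 higher and 1 lower in UV than in CON, 2 lower in Rux than in UV, and 2 higher and 1 lower in Rux than in CON. Adamts4, an aggrecanase, was at 167 CPM in CON, 67.2 CPM in UV and 18.4 CPM in Rux, and was lower in each step. Adamts5, a related aggrecanase, was at 275, 455 and 424 CPM and stromelysin, Mmp3, at 252, 395 and 567 CPM, both higher in the irradiated libraries. Pcolce, which enhances procollagen cleavage, was at 435, 476 and 317 CPM. Of 10 receptors and ligands known to bind SLRPs 8 passed, with 3, 1 and 3 higher in the same order of comparisons and 0 lower. Cd44 was at 658, 1177 and 1270 CPM, Tgfb2 at 140, 244 and 207 CPM, and Tgfb1 at 45.2, 39.9 and 80.5 CPM.

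Of 9 other SLRP genes only Ecm2 and Tsku passed 10 CPM in FB-like cells. Ecm2, the chromosome 13 neighbour, was at 176 CPM in CON, 161 CPM in UV and 135 CPM in Rux, lower in each step and unlike Ogn. Epyc, Kera, Optc, Chad, Chadl, Nyx and Podnl1 stayed below 5 CPM in FB-like cells, and Chadl was highest in SCH-like cells, at 28.4, 19.7 and 33.6 CPM from 11, 11 and 12 UMIs.

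Across 48 sums, 16 cell classes in 3 libraries, the genes most like each SLRP gene were ranked by Pearson's r of log2(CPM + 1), as a description with no test, since sums of 1 library share its depth and free RNA. Lum and Ogn were the most alike of the 9 genes (r = 0.92) and Dcn and Aspn the least (r = 0.49). The most alike genes outside the family were Pcolce2 for Dcn (0.90), Clec3b for Lum (0.96), C4b for Ogn (0.96), Nbl1 for Bgn (0.91), Tbx15 for Aspn (0.94), C1qtnf2 for Fmod (0.91), H6pd for Prelp (0.92), Eya4 for Omd (0.87) and Ms4a4d for Podn (0.94). The next in rank were Amy1 and Clec3b for Dcn, Adgrd1 and Igfbp6 for Lum, Adgrd1 and Clec3b for Ogn, and Col6a2 and Col6a1 for Aspn.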

How the data were processed

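Full-thickness dorsal skin was profiled with 10x Genomics 3′ chemistry (v3.1), 1 library per group (CON, UV, Rux). The authors deposited UMI counts per gene and cell, with no normalization, against mm10. The file headers give Cell Ranger 7.0.0, whereas the submitters' processing notes give 6.1.2. The earlier version leaves intronic reads out by default and the later one counts them, so which were counted is uncertain. Depth was 165337289, 133972374 and 131570327 UMIs in CON, UV and Rux. The 9 genes and the other lists were chosen with earlier results of these data known.

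Cells were kept if they had 200 or more genes and no more than 10% mitochondrial UMIs, and the cells with the highest Scrublet scores, 0.8% per 1000 cells, were removed, which left 10777, 10232 and 9299 cells with a median of 7530, 7657 and 9451 UMIs. SLRP genes were taken out before clustering with Seurat 5.3.0 in R 4.3.3 (2000 variable genes, 30 principal components, resolution 1.5), and FB-like cells were clustered again on 20 components at resolution 0.5. A cluster was called X-like when at least 3 markers of X were each detected in at least 10% of its cells and X led every other list. It was still left unnamed when another list scored close to X with at least 3 markers detected. The same held for few UMIs per cell with no marker of X among the leading genes, or more markers of another list among them. Classes with at least 50 cells in every library were described: 10 named and 6 unnamed ones.

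UMIs were summed per class and library, scaled to CPM of that sum, and compared as log2 ratios with 0.5 UMI added. Intervals are exact 95% ones, Poisson for levels, Clopper-Pearson for shares and conditional binomial for ratios. Those for shares and ratios were run on counts simulated from the distributions they assume. This checked the calculation and not how well these distributions hold in the data. A count of 0 was given an upper limit of 3 UMIs or cells. A gene was past the threshold at 1.5-fold with a mean of at least 10 CPM. The 9 genes were always named, list genes at a mean of 50 CPM and 1.5-fold, and the 3 genes most like each by Pearson's r among those with at least 50 CPM in 1 sum. A subcluster's leading genes were its 5 highest log2 ratios at 100 CPM or more. Python 3.11.15, numpy 2.4.6, scipy 1.17.1, pandas 2.3.3, scanpy 1.11.5 and matplotlib 3.10.9 were used. Other settings tried were a stricter and a looser cell filter, no doublet removal, other resolutions, clustering with the SLRP genes left in, equal weight per cell, median-of-ratios scaling, totals without haemoglobin, keratin and mitochondrial genes, CON subcluster weights, other CPM minimums and no thinning.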

Additional observations from a re-analysis of the deposited data

Results flagged for a closer look

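In named classes, 142 ratios of an SLRP gene with a mean of at least 10 CPM were set beside that in FB-like cells. Of these, 9 had the 95% intervals of the pair on opposite sides of 0 and at least 1 of the pair past 1.5-fold. None of these differences was tested, since each condition had 1 library. In PCY-like cells Aspn had a log2 ratio of 0.65 for Rux over CON, against −0.11 in FB-like cells. In SCH-like cells Ogn had 0.72 for Rux over CON, against −0.18, and Dcn had 1.18 for UV over CON, against −0.04, while the thinned share of SCH-like cells with a Dcn UMI was 47.4% in CON and 46.5% in UV. Dcn had 0.61 for UV over CON in VEC-like cells, where its levels were 168, 257 and 105 CPM in CON, UV and Rux, and 0.76 for Rux over UV in mast cell-like (MC-like) cells, from 67 and 169 UMIs. LYM-like cells had 148 to 166 CPM of Dcn.

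Lum had 0.97 for Rux over CON in KB-like cells, at 11.1 and 21.7 CPM, and 1.09 in hair follicle-like (HF-like) cells, at 11.0 and 23.5 CPM, against −0.05 in FB-like cells. Aspn had 0.65 for UV over CON in KB-like cells, at 9.10 and 14.2 CPM, and 1.20 in VEC-like cells, at 8.87 and 20.7 CPM, against −0.09. LYM-like cells had 28.7 CPM of Lum in CON and 33.5 CPM in Rux, above these levels, and 31.2 CPM of Aspn in CON but 5.91 CPM in UV, below the KB-like and VEC-like levels of UV.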

How the results depend on the processing

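The UV and Rux differences of Ogn and Fmod in FB-like cells kept their direction and stayed past 1.5-fold in the 36 alternative values, 4 ratios under 9 settings each. Ogn ranged from 0.66 to 0.86 for UV over CON and from −0.99 to −0.87 for Rux over UV, and Fmod from 0.78 to 1.17 and from −1.47 to −1.07. Over the 9 genes, 220 of 243 alternative ratios kept their sign and 241 their side of 1.5-fold. The exceptions to the latter were Bgn in Rux over CON, at 0.60 both under median-of-ratios scaling and with CON subcluster weights. The median of the 9 genes for UV over CON was −0.129 under the strict cell filter, 0.0689 under median-of-ratios scaling, 0.0387 with equal weight per cell and 0.326 with CON subcluster weights. For Rux over UV these values were −0.0555, −0.0645, −0.0670 and −0.269, with −0.0920 without doublet removal and −0.0882 at resolution 0.8. For Rux over CON they were −0.197, 0.0331, 0.0110 and 0.0646. Under median-of-ratios scaling the median of all genes moved to 0.00, 0.07 and 0.07, and 702 genes were higher and 456 lower in UV than in CON, against 519 and 714, with 883 higher and 560 lower in Rux than in CON, against 595 and 838.

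With a minimum of 50 CPM, 255 genes were higher and 187 lower in UV than in CON, 114 and 133 in Rux than in UV, and 330 and 266 in Rux than in CON. With no filter beyond 1 UMI these counts were 5531 and 5181, 3138 and 5646, and 3684 and 6138. The number of genes tested changes with the minimum, so these counts cannot be read against the percentages above. For UV over CON and Rux over CON, more genes were higher than lower at 50 CPM, the reverse of the order at 10 CPM. Without thinning the share of FB-like cells of all libraries with a UMI was 99.4% for Dcn, 85.1% for Lum, 78.6% for Bgn, 5.39% for Fmod, 86.7% for Ogn, 28.0% for Omd, 66.8% for Prelp, 68.2% for Aspn and 56.4% for Podn. The level in the highest subcluster was 14934 CPM for Dcn at resolution 0.3 and 14846 CPM at 0.8, 1691 CPM for Bgn and 90.3 CPM for Omd at 0.3, and 1669 and 2208 CPM for Ogn at 0.3 and 0.8. Which subcluster was highest also changed for some genes. At 0.3 it was led by Olfr1033 and Gdf10 for Dcn, Saa3 and Hp for Bgn, and Rrad and Socs3 for Ogn. For Podn it was led by Pecam1 and Dnah12 at 0.3 and by Plcxd3 and Kcnab1 at 0.8. For Lum, Fmod, Omd, Prelp and Aspn the leading genes began alike at every resolution. The causes were not tested beyond what each setting changes by construction. No paired analysis was possible because each group had 1 library. Spread between animals could not be measured, and the intervals would not cover it.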

Other observations

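An unnamed cluster led by Lingo2, Adgrb3 and Dcc had SLRP levels that differed between libraries. Aspn was at 32.6 CPM in CON, 198 CPM in UV and 179 CPM in Rux, a log2 ratio of 2.60 (2.37 to 2.84) for UV over CON. Bgn was at 242, 419 and 495 CPM there, and Ogn at 6.95, 54.3 and 10.9 CPM. Dcn was at 171, 372 and 171 CPM. The first pair was high in both irradiated libraries, while Ogn and Dcn were high in UV alone.

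Subcluster 9 of the FB-like cells, led by Ednrb, Acta2 and Actg2, had a higher level of most SLRP genes in UV and Rux than in CON. Ogn was at 21.5, 290 and 505 CPM, Aspn at 83.9, 411 and 545 CPM and Omd at 22.1, 121 and 191 CPM. The subcluster held 102, 154 and 358 cells, and the part of a change in its makeup was not tested.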
